A study of Mus musculus with 7 samples.

Results

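Il33, Il18 and Il1rl1 are 3 of the 18907 genes tabulated in single cells of mouse gastric epithelium, and they were followed here through the cell classes of the pylorus and the corpus. They were chosen by name, with earlier counts from these plates already known, so where each gene is expressed is given as a description without a test. The cells came from C57BL/6 mice that the sample titles call WT, without any treatment. The groups were 3 plates of the pylorus, the outlet of the stomach, and 4 plates of the corpus, its acid-producing main body. Glands were pressed out of the tissue and digested, and living cells, those that exclude the dye DAPI, were sorted 1 per well into 384-well plates and the labels name no further gate. SORT-seq, a plate form of the CEL-seq2 method, then counted the 3′ ends of transcripts by unique molecular identifiers (UMIs). A well counted as a cell from 1000 UMIs upward, which left 2235 cells of 2688 wells, 983 in pylorus and 1252 in corpus plates. The labels tie no plate to an animal and give neither age nor sex, so p-values measure the spread between plates, which may be technical.

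Interleukin-33, the product of Il33, is an alarmin of the interleukin-1 family. Epithelial cells hold it in the nucleus and release it when they are damaged, and it then acts on cells that carry ST2, the receptor chain encoded by Il1rl1. Mast cells, group 2 innate lymphoid cells and some T cells are known to carry ST2, which pairs with the co-receptor chain of Il1rap and signals through Myd88 and NF-κB. Interleukin-18 is a related cytokine that epithelial cells store as a precursor, which caspase-1 cuts to its active form. The tables hold 1 row per gene, so the membrane-bound and the soluble forms of ST2, both made from Il1rl1, were not told apart.

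Pylorus replicates 1 to 3 held a median of 8240, 20326 and 23400 UMIs per kept cell, and corpus replicates 1 to 4 held 6899, 19648, 25381 and 25545. Spike-in RNA took 6.55% of the UMIs of pylorus replicate 1 and 4.27% of those of corpus replicate 1, against 0.256% to 0.426% in the other 5 plates. Pylorus replicates 2 and 3 and corpus replicates 3 and 4 were alike in depth and spike-in share and are called the 4 similar plates. Corpus replicate 2, at 19648 UMIs and 0.426%, lay near them in depth but was left out of this set. The 4 plates also shared their pit-like clusters, given below, so depth and spike-in share alone do not define the set. Gast, the gastrin gene of the distal stomach, had 0 UMIs in each of the 3 plates labelled pylorus, 3340 in the library labelled corpus replicate 1 and 0 in the other 3 corpus plates. Pdx1, a transcription factor gene of the distal stomach, had 0 UMIs in each plate labelled pylorus and 6, 0, 3 and 1 in corpus replicates 1 to 4. The plates labelled pylorus thus lack UMIs of both of these genes, and the library labelled corpus replicate 1 holds them, so both go against their labels in these genes. Atp4a, a marker of acid-producing cells, stood at 150, 269 and 448 CPM in pylorus replicates 1 to 3. It stood at 381, 489, 1010 and 681 CPM in corpus replicates 1 to 4. Atp4a thus went with the labels, except that pylorus replicate 3 lay above corpus replicate 1. Chief cell markers did not separate the regions. Over all kept cells they summed to 156781, 126069 and 116579 CPM in pylorus replicates 1 to 3. In corpus replicates 1 to 4 they summed to 43589, 152641, 95054 and 99725 CPM. Pylorus and corpus are the names the labels give, and every direction between the regions rests on those labels. Differences in Il33, Il18 and Il1rl1 over all kept cells and of Il33 and Il18 in pit-like cells are also given without the library labelled corpus replicate 1.

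Clustering without the 3 genes gave 18 clusters, which were named by marker genes. Pit-like cells, the 500 surface mucous cells marked by Muc5ac, Gkn1, Gkn2 and Tff1, came in 3 clusters. A cluster led by Sptssb, Fabp2 and Muc5ac held nearly all pit-like cells of pylorus replicate 1 and of corpus replicates 1 and 2. Clusters led by Aldh3a1 and Gkn1 and by the interferon-response genes Ifit1 and Isg15 held nearly all those of the 4 similar plates. There were also 457 neck-like, 316 chief-like, 282 endocrine-like, 156 proliferating-like, 144 parietal-like, 114 mast-like, 50 tuft-like and 19 T cell-like cells. A cluster of 187 cells led by Slc1a3, Fam101b and Dtl stayed unnamed under the naming rule and is called the Slc1a3-led cells, and a last one of 10 cells stayed unnamed too.

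Il33 was carried mainly by pit-like cells. Of 1759 Il33 UMIs in all kept cells, 1278 (72.7%) lay in pit-like cells, which were 22.4% of the cells. The share ranged over the 7 plates from 46.9% to 97.0%. Levels are given as CPM, the UMIs of the gene per 1000000 UMIs of the same cells.

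In pit-like cells of pylorus replicates 1, 2 and 3, Il33 stood at 147, 266 and 176 CPM, from 160, 558 and 399 UMIs. In pit-like cells of corpus replicates 1, 2, 3 and 4 it stood at 58.0, 14.2, 22.9 and 11.5 CPM, from 65, 10, 56 and 30 UMIs. Every plate labelled pylorus lay above every plate labelled corpus, and the library labelled corpus replicate 1 was the highest of its region. The mean was 196.5 ± 62.3 CPM in pylorus plates (SD, n = 3) and 26.6 ± 21.5 CPM in corpus plates (SD, n = 4). Of 8907 genes tested in pit-like cells, 2.32% lay above every corpus plate in every pylorus plate.

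The log2 difference, pylorus minus corpus, was 3.09 ± 0.42 (SE), with an adjusted p of 0.0758 over all genes tested, which did not pass (limma on sums per plate with Benjamini-Hochberg adjustment). No gene passed in this fit, and 215 had an unadjusted p under 0.05; Il33 had the second smallest p. Without the library labelled corpus replicate 1 the difference was 3.44 ± 0.33 and passed at an adjusted p of 0.0140. The mean of the other 3 corpus plates was then 16.2 CPM, so that the ratio of pylorus to corpus was 12.1 without that library and 7.38 with it.

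The difference had the same direction within each set of plates. In the 4 similar plates the mean was 221 CPM in the pylorus and 17.2 CPM in the corpus, a ratio of 12.9. The log2 difference there was 3.50 ± 0.18 (adjusted p = 6.53e-26, limma), in a fit in which 3.02% of genes passed. With 2 plates per region, the spread pooled over genes outweighed the gene's own in that test, so its small p rests mostly on other genes. In the other 3 plates, pylorus replicate 1 stood at 147 CPM against a mean of 36.1 CPM in corpus replicates 1 and 2, a ratio of 4.07.

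**Figure D1:**
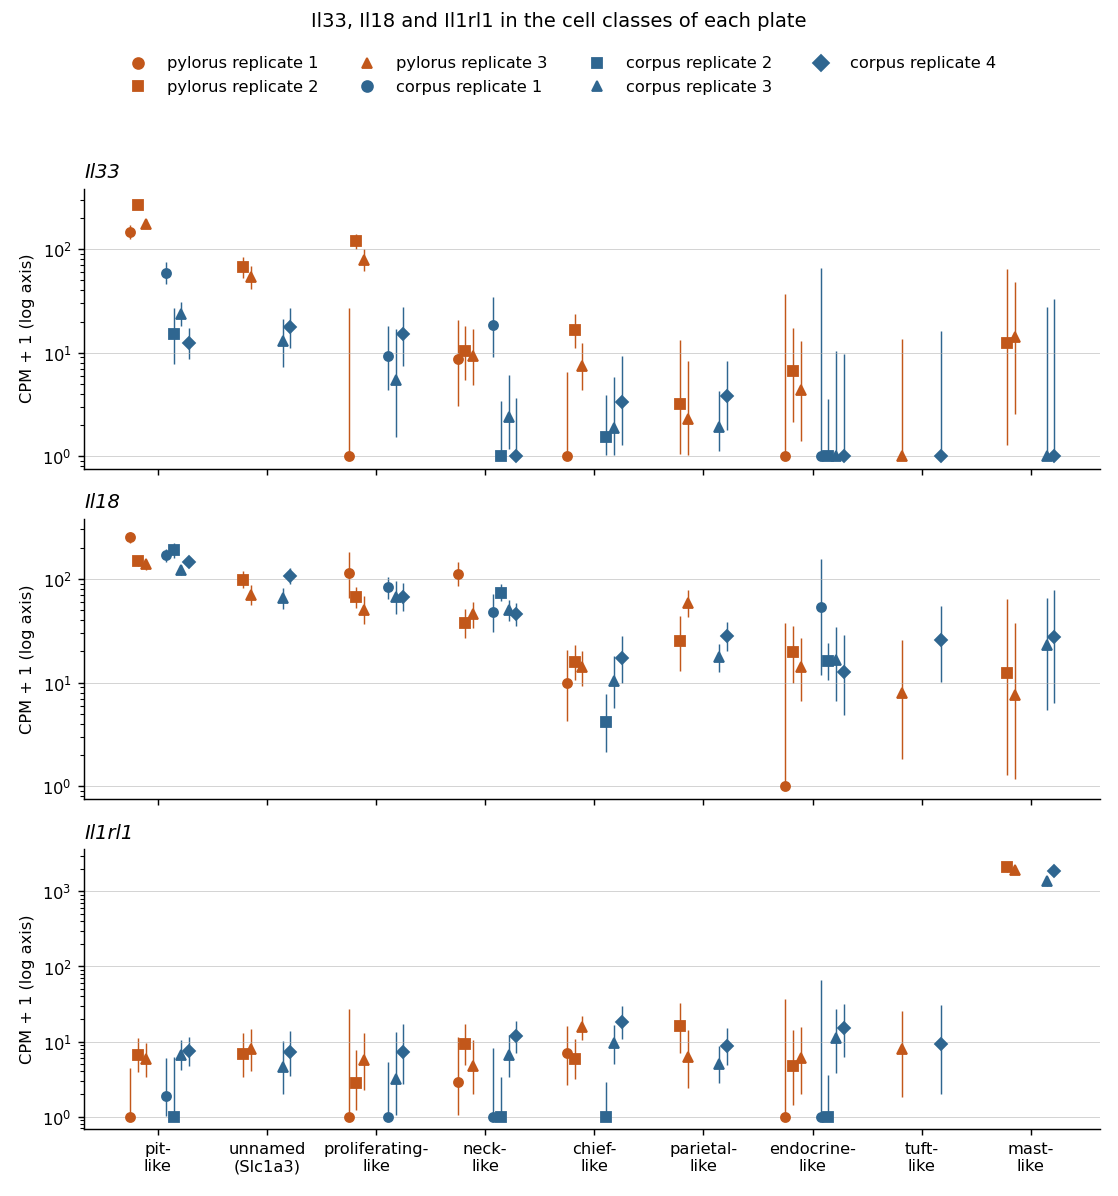
Il33, Il18 and Il1rl1 in 9 cell classes, as CPM + 1 on a log axis, 1 symbol per plate with at least 10 cells of the class (pylorus left and corpus right in each class). Bars are 95% Poisson intervals, which cover counting error only. Il33 in pit-like cells stands at 147 to 266 CPM in pylorus plates and at 11.5 to 58.0 CPM in corpus plates, while Il1rl1 stands above 1000 CPM in mast-like cells alone.

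Single pit-like cells differed widely in Il33. In pylorus replicates 1, 2 and 3 the median cell held 0, 4 and 3 Il33 UMIs and the highest 22, 56 and 41. In corpus replicates 1, 2, 3 and 4 the median cell held 0 UMIs and the highest 14, 3, 16 and 9. At least 5 UMIs were found in 11.2%, 49.2% and 43.9% of the pit-like cells of the pylorus plates and in 3.74%, 0%, 3.80% and 2.74% of those of the corpus plates. The 5 richest cells of a plate held 55.6%, 38.7% and 32.8% of all Il33 UMIs of pit-like cells in pylorus replicates 1 to 3. In corpus replicates 1 to 4 they held 67.7%, 90.0%, 60.7% and 76.7%. In each plate a few cells thus held a large part of the Il33 transcripts.

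A UMI of Il33 was found in 34.8%, 73.0% and 77.3% of pit-like cells of pylorus replicates 1 to 3. The shares were 17.8%, 26.1%, 26.6% and 16.4% in corpus replicates 1 to 4. Depth differed between plates, so each cell was also thinned to 1000 UMIs. Thinned shares averaged 16.4% ± 3.7 in pylorus plates (SD, n = 3) and 1.91% ± 1.599 in corpus plates (SD, n = 4), a difference of 14.5 percentage points. The exact two-sided permutation test over 35 splits of the plates gave p = 0.0571, the smallest it can give, and 0.171 after adjustment over the 6 shares tested. Without the library labelled corpus replicate 1 the difference was 15.1 percentage points (exact permutation, p = 0.100, the smallest that 3 plates against 3 allow). Endocrine-like cells, a class not known for Il33, held a UMI in 4.67% of pylorus and 0% of corpus cells before thinning, at a median of 11354 UMIs per cell against 24756 in pit-like cells.

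Within pylorus replicate 2, Il33 stood at 354 CPM in the Ifit1-led and 181 CPM in the Aldh3a1-led pit-like cluster. In pylorus replicate 3 the order was turned, with 151 CPM in the Ifit1-led and 199 CPM in the Aldh3a1-led cluster. In corpus replicates 3 and 4 both clusters stood between 9.43 and 26.9 CPM. Neither cluster was thus the richer one in both pylorus plates.

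**Figure D2:**
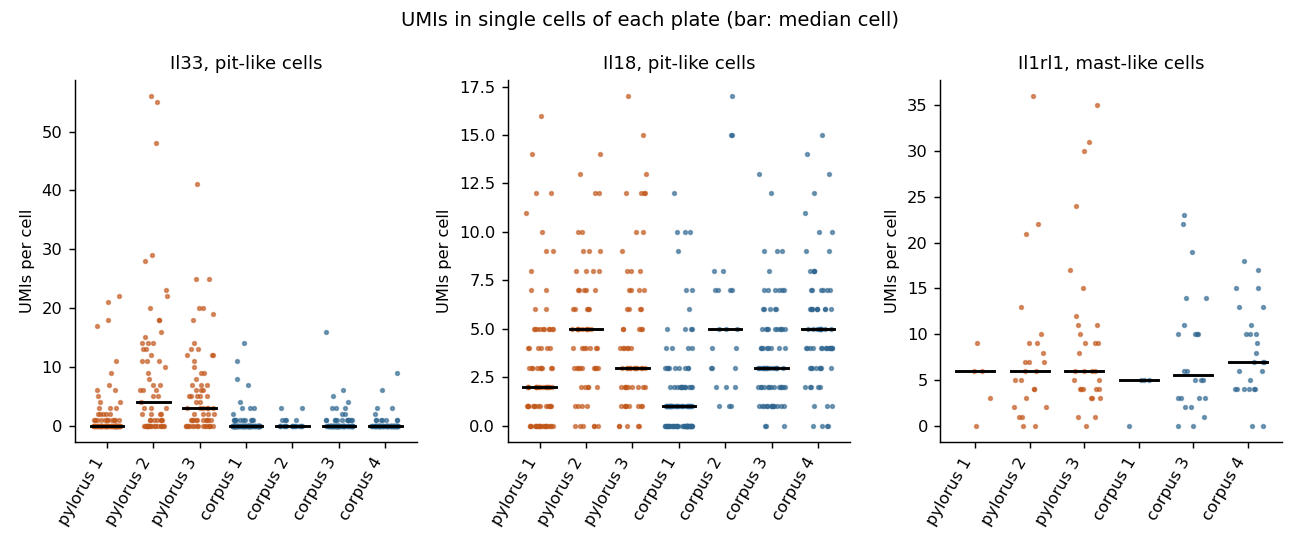
UMIs per single cell of Il33 and Il18 in pit-like cells and of Il1rl1 in mast-like cells, 1 point per cell and 1 column per plate (pylorus plates left, corpus plates right); black bars mark the median cell. The highest Il33 counts are 22, 56 and 41 UMIs in the pylorus plates and at most 16 in the corpus plates, while the median of Il18 is 2 to 5 UMIs in pylorus and 1 to 5 in corpus plates. Corpus replicate 2 has no mast-like cell and no column for Il1rl1.

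Outside pit-like cells, the Slc1a3-led and proliferating-like cells carried Il33. In Slc1a3-led cells Il33 stood at 66.0 and 52.9 CPM in pylorus replicates 2 and 3 and at 11.8 and 16.9 CPM in corpus replicates 3 and 4. Both pylorus plates lay above both corpus plates, as did 18.9% of the 8057 genes tested there. Il33 was higher in pylorus plates by 1.87 ± 0.27 on the log2 scale (SE) and passed (adjusted p = 0.000209, limma, 2 plates per region). Genes that passed in that direction were 0.186% of those tested. The spread pooled over genes outweighed Il33's own in this fit too.

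Proliferating-like cells held Il33 at 0, 118 and 78.6 CPM in pylorus replicates 1 to 3 and at 8.27, 4.42 and 14.1 CPM in corpus replicates 1, 3 and 4. The regions overlapped, since none of the 14 proliferating-like cells of pylorus replicate 1 held an Il33 UMI, where 3 counts correspond to 21.0 CPM. The log2 difference of 1.46 ± 1.33 did not pass (adjusted p = 0.9999, limma). Without pylorus replicate 1, the plate at 0 CPM, it was 3.36 ± 0.44 and passed (adjusted p = 0.0240, limma, 2 pylorus plates left). In the fit that included this plate 0% of 6914 genes passed, and the share that passed without it is not given. Without the library labelled corpus replicate 1 the log2 difference was 1.38 ± 1.59 and did not pass (adjusted p = 0.996, limma).

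Both classes also held transcripts of pit cells. Gkn1, Gkn2 and Tff1 together made up 164570 CPM of pit-like, 100892 CPM of proliferating-like and 40125 CPM of Slc1a3-led cells in pylorus plates. They made up 134023, 67980 and 32238 CPM of the same classes in corpus plates. Per 1000 UMIs of these 3 genes there were 1.25, 0.93 and 1.47 Il33 UMIs in the same order in pylorus plates and 0.17, 0.15 and 0.43 in corpus plates. Within plates the ratio varied more. In proliferating-like cells it was 0, 1.01 and 0.874 in pylorus replicates 1 to 3 and 0.182, 0.070 and 0.145 in corpus replicates 1, 3 and 4. In pit-like cells of the same plates it was 0.890, 1.56 and 1.11 in the pylorus and 0.648, 0.156 and 0.074 in the corpus. It was lower in proliferating-like than in pit-like cells in 5 of the 6 plates and higher in corpus replicate 4. In Slc1a3-led cells the ratio was 1.36 and 1.65 in pylorus replicates 2 and 3 and 0.475 and 0.404 in corpus replicates 3 and 4. There it was higher than in pit-like cells, except in pylorus replicate 2. The part of pit cell transcripts in the Il33 of these classes was not tested.

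Gland cells carried little Il33. Neck-like cells, which make the mucin Muc6, averaged 8.45 ± 0.87 CPM in pylorus plates (SD, n = 3) and 4.74 ± 8.57 CPM in corpus plates (SD, n = 4). Chief-like cells, the source of pepsinogen, held 0, 15.5 and 6.49 CPM in pylorus replicates 1 to 3 and at most 2.31 CPM in any corpus plate. Parietal-like cells, the source of gastric acid, held 2.17 and 1.29 CPM in pylorus replicates 2 and 3 and 0.893 and 2.84 CPM in corpus replicates 3 and 4. Mast-like cells held 3 Il33 UMIs in 114 cells, and T cell-like cells held 0 in 19. Pit-like cells had the highest mean in both regions, apart from every other class in pylorus plates, while in corpus plates their range overlapped those of the Slc1a3-led, proliferating-like and neck-like cells. Slc1a3-led and proliferating-like cells came next in both regions, with ranges that overlapped each other.

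Over all kept cells Il33 stood at 63.1, 97.5 and 61.1 CPM in pylorus replicates 1 to 3 and at 30.4, 2.55, 8.0 and 7.24 CPM in corpus replicates 1 to 4. Every pylorus plate lay above every corpus plate, as for 1.68% of 12071 genes. The log2 difference was 2.82 ± 0.54, with an unadjusted p of 0.000622 and an adjusted p of 0.913, which did not pass (limma); 0.0166% of genes passed in this fit. In the 4 similar plates it was 2.94 ± 0.19 and passed (adjusted p = 3.1e-06, limma), as did 3.54% of genes there. Without the library labelled corpus replicate 1 it was 3.27 ± 0.38, which did not pass either (adjusted p = 0.116, limma). The ratio of pylorus to corpus means was 6.13, and 12.5 without that library. Marker transcripts of the pit list summed to 72552 to 89328 CPM over all cells in pylorus plates and to 18281 to 78983 CPM in corpus plates, and their part in this difference was not tested. Fewer cells of a class and less RNA per cell cannot be told apart in such sums over all cells.

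Markers of other cells known to make Il33 were also summed in the pit-like cells. The 6 endothelial markers with a row summed to 2.65 to 4.30 CPM in pylorus plates and to 5.72 to 9.82 CPM in corpus plates. Kdr was at 0, while Esam, Egfl7 and Plvap were found in 28, 14 and 10 of the 500 cells. The 7 stromal markers summed to 0.955 to 2.65 CPM in pylorus plates and to 0 to 26.8 CPM in corpus plates. Pdgfra and Lum were at 0, while Col1a1 had 23 UMIs. The highest stromal sum, 26.8 CPM, was that of the library labelled corpus replicate 1. Il33 itself stood at 147 to 266 CPM in pit-like cells of pylorus plates and at 11.5 to 58.0 CPM in those of corpus plates. The part of such other cells in it was not tested.

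Il18 was also highest in pit-like cells, but it reached further into the glands. Of 3276 Il18 UMIs, 1890 (57.7%) lay in pit-like and 413 (12.6%) in neck-like cells. In pit-like cells Il18 stood at 252, 148 and 136 CPM in pylorus replicates 1 to 3 and at 168, 187, 122 and 145 CPM in corpus replicates 1 to 4. The plates of the regions overlapped. Means were 178.5 ± 63.5 CPM in pylorus plates (SD, n = 3) and 156 ± 28 CPM in corpus plates (SD, n = 4). The log2 difference of 0.24 ± 0.20 did not pass (adjusted p = 0.9998, limma). In the 4 similar plates it was 0.01 ± 0.13. Without the library labelled corpus replicate 1 the log2 difference was 0.19 ± 0.22 and the corpus mean 151 CPM.

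A UMI of Il18 was found in 76.4%, 90.5% and 92.4% of pit-like cells of pylorus replicates 1 to 3 and in 61.7%, 100%, 96.2% and 94.5% of those of corpus replicates 1 to 4. After thinning the shares were 15.8% ± 2.7 in pylorus plates (SD, n = 3) and 13.7% ± 1.1 in corpus plates (SD, n = 4; exact two-sided permutation test, p = 0.229, 0.429 adjusted over 6 shares). The 5 richest cells of a plate held 19.7% to 23.7% of the Il18 UMIs in pylorus plates and 17.1% to 47.7% in corpus plates, where the highest share was that of corpus replicate 2 with its 23 pit-like cells. Il18 was thus spread over most pit-like cells.

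Slc1a3-led cells followed with 83.1 ± 20.2 CPM of Il18 in pylorus plates and 84.6 ± 29.6 CPM in corpus plates (SD, n = 2 each). Proliferating-like cells held 75.7 ± 32.6 CPM in pylorus plates and 71.3 ± 8.9 CPM in corpus plates (SD, n = 3 each). In neck-like cells Il18 stood at 111, 36.5 and 44.7 CPM in pylorus replicates 1 to 3 and at 46.8, 72.5, 49.1 and 44.6 CPM in corpus replicates 1 to 4. Ranges of these 3 classes overlapped in both regions, and all lay below the range of pit-like cells. None of the differences between regions within these classes passed (limma, adjusted p at least 0.967). The share of genes that passed was 0.0487% in neck-like, 0% in proliferating-like and 0.447% in Slc1a3-led cells.

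Il18 had lower means in enzyme- and acid-producing cells. Chief-like cells averaged 12.3 ± 3.0 CPM in pylorus plates and 9.57 ± 6.51 CPM in corpus plates (SD, n = 3 each), with a log2 difference of 0.51 ± 0.45 (adjusted p = 0.998, limma). Parietal-like cells averaged 40.4 ± 23.4 CPM in pylorus plates and 21.8 ± 7.4 CPM in corpus plates (SD, n = 2 each), with a log2 difference of 0.45 ± 0.36 (adjusted p = 0.509, limma). Neither passed, while 0% of genes passed in chief-like and 6.7% in parietal-like cells. In pylorus plates the range of parietal-like cells, 23.9 to 57.0 CPM, overlapped the 36.5 to 111 CPM of neck-like cells. In corpus plates these 2 ranges lay apart. Mast-like cells held 9 Il18 UMIs in 114 cells.

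Neck-like cells held more Il18 per pit cell transcript than pit-like cells did. Per 1000 UMIs of Gkn1, Gkn2 and Tff1 there were 3.62 Il18 UMIs in neck-like and 0.99 in pit-like cells of pylorus plates. In corpus plates there were 4.89 in neck-like and 1.08 in pit-like cells. By plate, neck-like cells stood at 18.1, 1.84 and 3.06 in pylorus replicates 1 to 3 and at 10.6, 49.5, 3.69 and 1.98 in corpus replicates 1 to 4. Pit-like cells stood at 1.52, 0.866 and 0.859 in the pylorus and at 1.88, 2.21, 0.828 and 0.942 in the corpus plates. The ratio was higher in neck-like cells in 7 of 7 plates, but its size rested on single plates. With 1 plate left out, a setting chosen after seeing the data, the pooled ratio of neck-like cells ran from 2.36 without replicate 1 to 5.61 without replicate 2 in pylorus plates. In corpus plates it ran from 2.97 without replicate 2 to 8.77 without replicate 4. Chief-like cells stood below, at 0.43 in pylorus and 0.40 in corpus plates. Parietal-like cells stood at 3.31 and 1.33, Slc1a3-led cells at 2.08 and 2.66 and endocrine-like cells at 0.96 and 2.35, in the same order. A pooled ratio above that of pit-like cells was thus not particular to neck-like cells. Over all kept cells Il18 averaged 89.7 ± 41.1 CPM in pylorus plates (SD, n = 3) and 72.0 ± 25.5 CPM in corpus plates (SD, n = 4), a log2 difference of 0.33 ± 0.32 that did not pass (adjusted p = 0.9999, limma). It was 0.46 ± 0.33 without the library labelled corpus replicate 1, and in the 4 similar plates it was -0.088 ± 0.14; neither passed.

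**Figure D3:**
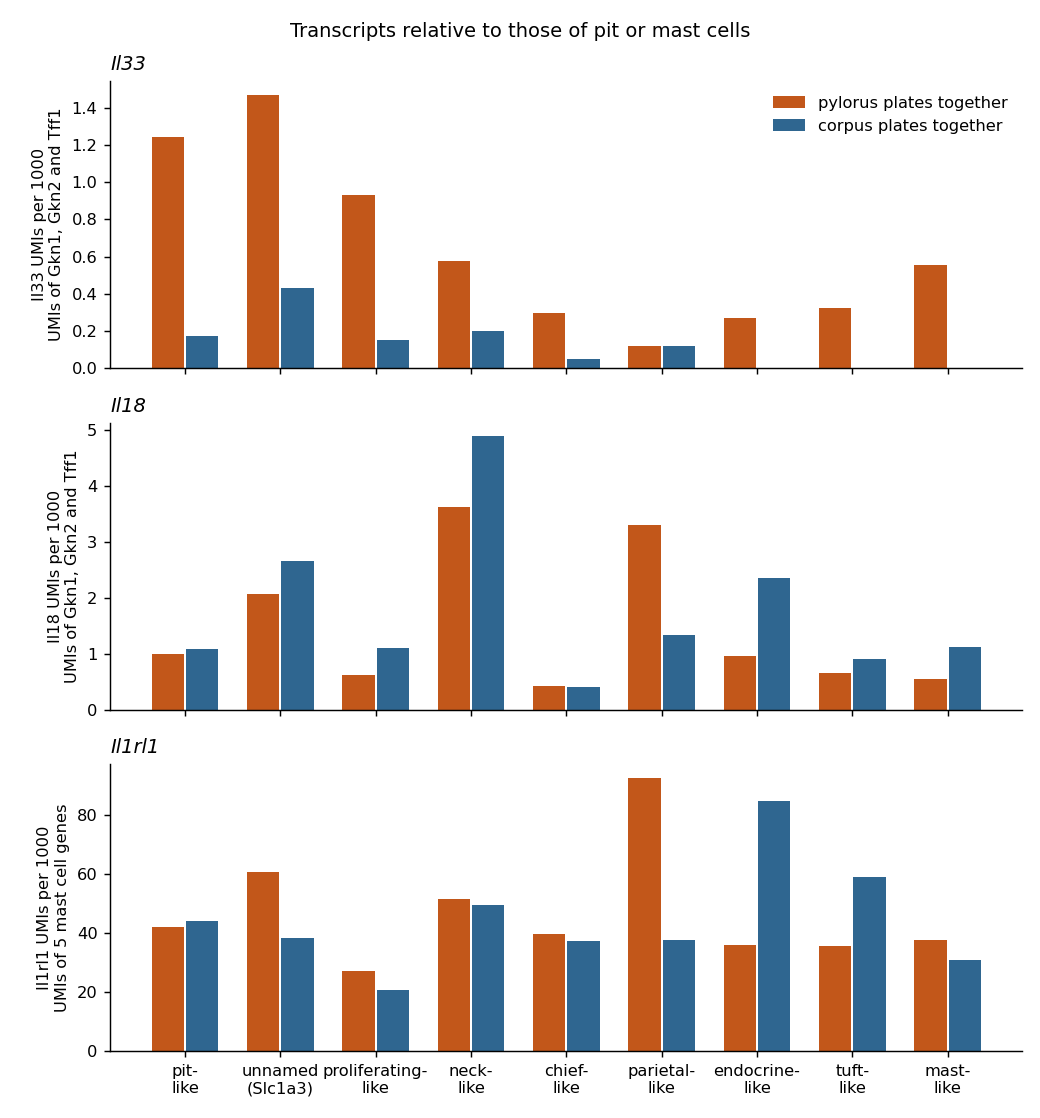
Il33 and Il18 UMIs per 1000 UMIs of the pit cell genes Gkn1, Gkn2 and Tff1, and Il1rl1 UMIs per 1000 UMIs of the mast cell genes Cpa3, Mcpt1, Mcpt2, Tpsb2 and Cma1, in 9 cell classes (bars: pylorus plates together left, corpus plates together right; pooled sums, so without error bars). Il18 in neck-like cells stands at 3.62 in pylorus and 4.89 in corpus plates, above the 0.99 and 1.08 of pit-like cells, and with 1 plate left out it runs from 2.36 to 5.61 in pylorus and from 2.97 to 8.77 in corpus plates, while Il1rl1 in pit-like cells stands at 42.0 and 44.0, against 37.6 and 31.0 in mast-like cells.

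Both cytokines were often found in the same pit-like cell. Of 186 pit-like cells with an Il33 UMI, 173 (93.0%) also held Il18, against 247 (78.7%) of 314 cells without Il33. Cells with Il33 were deeper, with a median of 30541 UMIs against 20055, and the part of depth in this result was not tested. Within pylorus replicates 1 to 3 the shares with Il18 were 87.1%, 93.5% and 96.1% of cells with Il33 and 70.7%, 82.4% and 80.0% of cells without it. In corpus replicates 1 to 4 they were 84.2%, 100%, 100% and 91.7% of cells with Il33 and 56.8%, 100%, 94.8% and 95.1% of cells without it. The share was higher among cells with Il33 in 5 of 7 plates, equal in corpus replicate 2 and lower in corpus replicate 4.

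Il1rl1 was carried by mast-like cells. These 114 cells were 5.10% of the kept cells and held 921 of 1165 Il1rl1 UMIs (79.1%). Their name rests on 11 detected mast cell markers, among them the proteases Cpa3, Mcpt2 and Tpsb2 and the receptor gene Kit. Il1rl1 stood at 2019, 2129 and 1927 CPM in mast-like cells of pylorus replicates 1, 2 and 3, from 24, 188 and 296 UMIs in 5, 24 and 31 cells. It stood at 1705, 1359 and 1846 CPM in those of corpus replicates 1, 3 and 4, from 15, 187 and 211 UMIs in 4, 24 and 26 cells. All 3 pylorus plates lay above the 3 corpus plates with such cells, with 1927 against 1846 CPM at the nearest. Corpus replicate 2 had none. The values of pylorus replicate 1 and corpus replicate 1 rest on 5 and 4 cells, too few for the comparison between regions below. How common such an order is among all genes in these plates was not tested, so no difference between the regions is read from it.

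An Il1rl1 UMI was found in 4 of 5, 22 of 24 and 30 of 31 mast-like cells of the pylorus plates. In corpus replicates 1, 3 and 4 it was found in 3 of 4, 22 of 24 and 24 of 26. After thinning to 1000 UMIs the shares were still 80.0%, 70.8% and 80.6% in pylorus plates and 75.0%, 83.3% and 84.6% in corpus plates. Mast-like cells were shallow, with a median of 3718 UMIs.

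Between the regions, plates with at least 10 mast-like cells were compared, 2 in each. They averaged 2028 ± 143 CPM in pylorus plates and 1602 ± 344 CPM in corpus plates (SD, n = 2 each). Both pylorus plates lay above both corpus plates, as did 18.1% of the 1794 genes tested, so a lack of overlap was common there. The log2 difference of 0.27 ± 0.20 did not pass (adjusted p = 0.877, limma), while 0.0557% of genes passed.

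**Figure D4:**
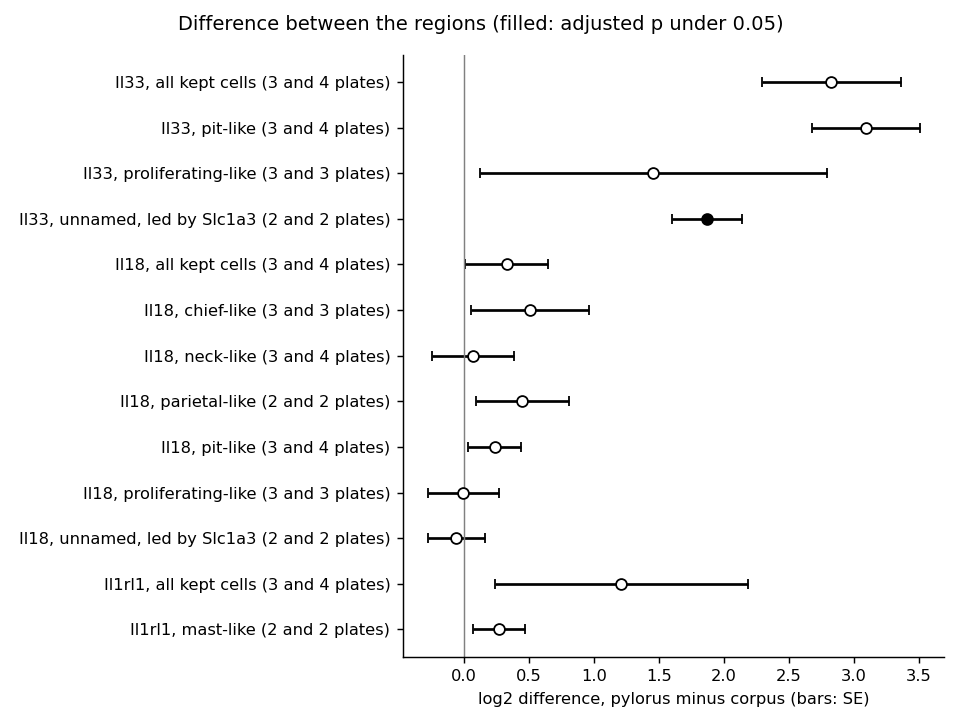
Log2 differences, pylorus minus corpus, of Il33, Il18 and Il1rl1 over all kept cells and within each class where they could be tested (Il1rl1 for all cells and mast-like cells); bars are SE and filled points passed an adjusted p of 0.05. Il33 lies at 2.82 over all cells and 3.09 in pit-like cells without passing, and at 1.87 in the Slc1a3-led cells, where it passed.

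Over all kept cells, Il1rl1 was higher in plates with a larger share of mast-like cells. It stood at 11.1, 28.5 and 39.8 CPM in pylorus replicates 1 to 3, where mast-like cells were 2.00%, 6.59% and 8.40% of the cells. It stood at 5.94, 0, 24.95 and 32.6 CPM in corpus replicates 1 to 4, where they were 1.44%, 0%, 6.65% and 7.78%. The order of the plates within each region was the same for both measures. Corpus replicate 2 held no Il1rl1 UMI in 279 cells, where 3 counts correspond to 0.510 CPM, and 8 of 12 mast cell markers were at 0 over all its cells. The log2 difference of 1.21 ± 0.97 did not pass (adjusted p = 0.9999, limma). Its size rested on single plates and on the weights, since it was 0.98 ± 1.06 without the library labelled corpus replicate 1, 0.38 ± 0.69 without corpus replicate 2, 0.11 ± 0.16 in the 4 similar plates and 2.31 ± 1.58 with voom weights. None of these passed. The share of mast-like cells averaged 5.66% ± 3.30 in pylorus plates (SD, n = 3) and 3.97% ± 3.82 in corpus plates (SD, n = 4; exact two-sided permutation test, p = 0.457, 0.549 adjusted over 6 shares). The corpus mean was 4.81% without the library labelled corpus replicate 1.

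In the other cells Il1rl1 was low. Outside mast-like cells it stood at 1.92, 5.76 and 7.204 CPM in pylorus replicates 1 to 3 and at 0.37, 0, 5.34 and 8.82 CPM in corpus replicates 1 to 4. No such cell held more than 4 Il1rl1 UMIs. These levels were 0.095%, 0.270% and 0.374% of the level in mast-like cells of the same plate in pylorus replicates 1 to 3 and 0.022%, 0.393% and 0.478% in corpus replicates 1, 3 and 4. The protease gene Cpa3 stood in other cells at 0.056%, 0.160% and 0.190% of its mast-like level in the pylorus and at 0.066%, 0.207% and 0.222% in the corpus plates. Tpsb2 stood at 0.056%, 0.221% and 0.290% and at 0.076%, 0.320% and 0.296%, and Mcpt1 at 0.076%, 0.222% and 0.307% and at 0.093%, 0.298% and 0.329%. The share of Il1rl1 was above those of these 3 protease genes in 5 of 6 plates and below them in corpus replicate 1, where it rests on 1 cell. Against the protease gene Mcpt2 it was lower in pylorus replicates 2 and 3 and corpus replicate 1. In these plates Mcpt2 stood at 64.0, 87.9 and 28.7 CPM in other cells and at 21829, 20855 and 29325 CPM in mast-like cells. In pylorus replicate 1 and corpus replicates 3 and 4 the share of Il1rl1 was above that of Mcpt2.

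Per 1000 UMIs of Cpa3, Mcpt1, Mcpt2, Tpsb2 and Cma1 there were 37.6 Il1rl1 UMIs in mast-like cells of pylorus plates. In the same plates there were 42.0 in pit-like, 51.7 in neck-like and 39.8 in chief-like cells. In corpus plates there were 31.0 in mast-like, 44.0 in pit-like, 49.6 in neck-like and 37.4 in chief-like cells. By plate the ratios spread more widely, from 0 to 52.2 in pit-like, 26.5 to 78.3 in neck-like cells of pylorus replicates 2 and 3 and 19.1 to 235 in chief-like cells of the pylorus, against 36.2 to 58.5 in mast-like cells. The ratio of 235 rests on 4 Il1rl1 UMIs of pylorus replicate 1, where neck-like cells held 1 Il1rl1 UMI beside 5 of the proteases. The part of mast cell transcripts in the Il1rl1 UMIs of the epithelial classes was not tested. The highest pooled ratios, 92.4 in parietal-like cells of pylorus plates and 84.7 in endocrine-like cells of corpus plates, rest on 11 and 10 UMIs.

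Other cells known to carry ST2 formed no class beside the T cell-like cells. T cell-like cells held 1 Il1rl1 UMI in 19 cells, 16 of them from pylorus and 3 from corpus plates. Of the 10 markers of group 2 innate lymphoid cells with a row, 7 were at 0 in mast-like cells, among them Rora, Klrg1, Il17rb and Thy1. In the 19 T cell-like cells Thy1, Il7r, Gata3 and Klrg1 of this list were found in 19, 10, 9 and 2 cells. Il17rb, Arg1, Areg and Il13 were at 0 there. Over all kept cells the 10 markers summed to 8.41 to 20.6 CPM in pylorus plates and to 6.00 to 16.3 CPM in corpus plates. No class was named for group 2 innate lymphoid cells.

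Mast cells depend on the GATA factors, and Gata2 transcripts stood at 1816 ± 282 CPM in mast-like cells (SD, n = 4 plates) against 1.61 to 5.50 CPM in the epithelial classes, the highest in tuft-like cells. The start regions of Il1rl1 are shown because mast cells are known to use a distal promoter with GATA elements, while other cells use one nearer to the coding exons. RefSeq lists 2 start windows of Il1rl1 on the plus strand in GRCm38.p6, a later build than the mm9 of the files, so only the sequences and their own coordinates are used. The first lies at chr1:40429320-40429569 and the second at chr1:40439379-40439628, each the 250 bases before a start. Capitals mark GATA words, that is GATA with A or T before it and A or G after it, searched on both strands, so that a word on the other strand reads TATC with C or T before it and A or T after it.
Il1rl1, distal start: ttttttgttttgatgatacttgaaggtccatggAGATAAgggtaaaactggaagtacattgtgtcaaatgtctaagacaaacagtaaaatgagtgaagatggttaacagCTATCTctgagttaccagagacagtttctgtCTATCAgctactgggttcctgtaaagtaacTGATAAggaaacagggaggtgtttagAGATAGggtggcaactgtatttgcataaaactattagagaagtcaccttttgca
Il1rl1, second start: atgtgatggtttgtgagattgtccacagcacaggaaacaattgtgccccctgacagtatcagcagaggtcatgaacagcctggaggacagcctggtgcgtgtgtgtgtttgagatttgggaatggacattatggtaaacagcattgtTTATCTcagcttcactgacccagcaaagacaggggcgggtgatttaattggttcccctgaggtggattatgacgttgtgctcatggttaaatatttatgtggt
The distal window holds 5 such words and the second holds 1. Of 32851 windows of the same length before RefSeq starts, 26.5% hold at least 1 word and 14 (0.0426%) hold at least 5. The 2 windows of Il33 on chromosome 19 and the window of Il18 on chromosome 9 hold 0. A word is a match of letters and no measured site, and the 3′ counts do not show which start was used.

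The genes whose levels ran most like each of the 3 were found over 47 sums, 1 per class and plate with at least 10 cells, among 9891 genes of at least 32 CPM in 1 of the sums, by Pearson correlation of log2(CPM + 10). The sums of a plate share its depth and background. Il1rl1 was high in the 4 mast-like sums alone, so a high r follows for any gene particular to mast-like cells. For Il1rl1 the most alike genes were Fcer1g (r = 0.99), Laptm5, Tpsab1, Cpa3, Cma1 and Srgn, genes of mast cells or of blood cells at large, all at r of at least 0.99 after rounding. Of these, Tpsab1, Cpa3 and Cma1 were on the marker list that named the mast-like cells. For Il18 the most alike genes were Gsto1 (r = 0.92), Pon2, Ptgr1, Ces2g, Klrg2 and Naprt1, several of them enzymes of detoxification. For Il33 they were Dpcr1 (r = 0.83), a mucin-like pit cell gene, Shh (r = 0.80), the morphogen of gastric surface cells, Vars2, Tnni2, Vstm2b and Sectm1b.

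Of the other genes of the pathway, taken from 6 lists, 61 had a row. None of the 37 that could be tested over all kept cells passed between the regions (limma, adjusted p = 0.9999 for the lowest), nor did any of the 25 tested in pit-like or the 7 tested in mast-like cells. Their median log2 difference was 0.10 over all kept cells and 0.10 in pit-like cells, against 0.00 and 0.02 for all genes tested. In mast-like cells it was 0.33 against 0.02.

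**Figure D5:**
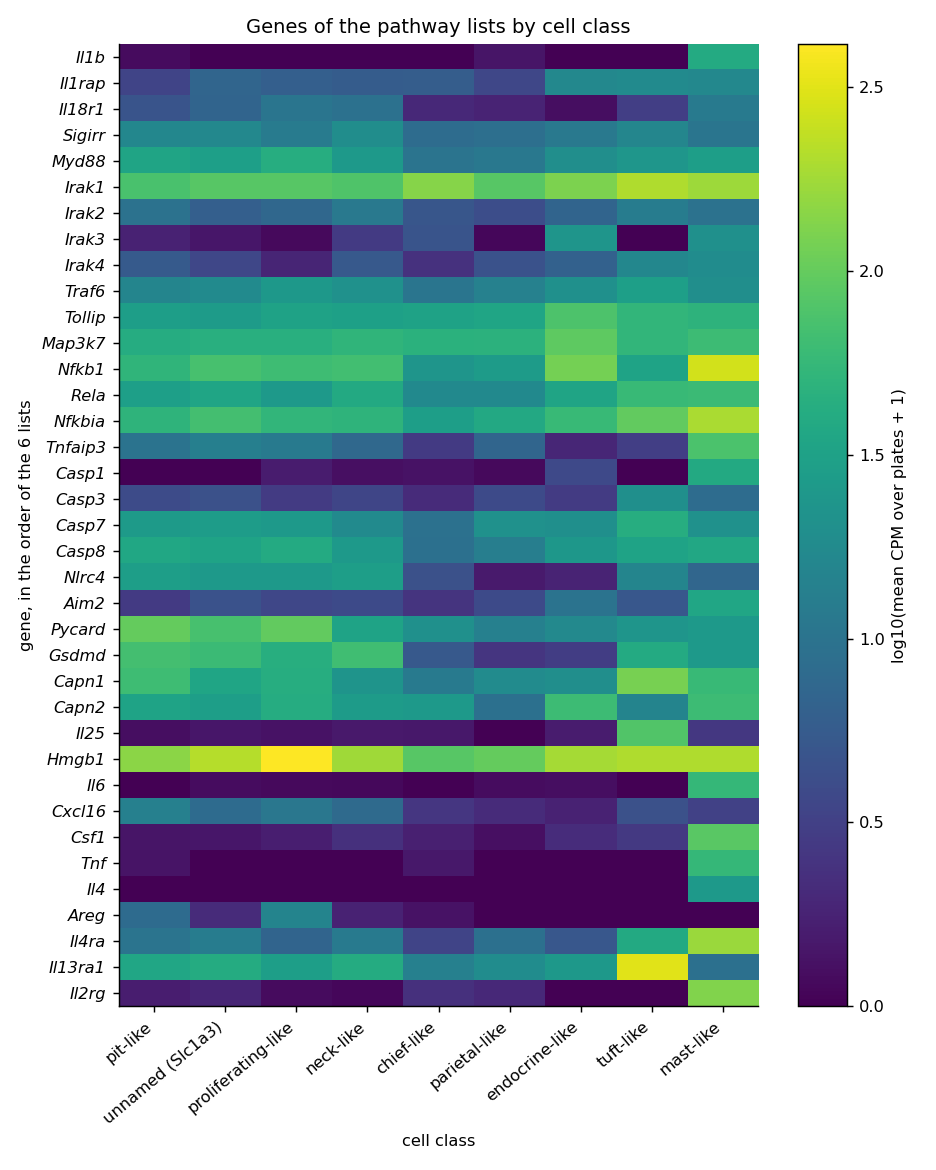
Mean level over plates of 37 genes of the pathway lists in 9 cell classes, as log10(CPM + 1), with rows in the order of the lists (ligands, receptors, signalling, maturation and release, other alarm cytokines, type 2 cytokines). Casp1 is at 0 in pit-like cells and at 37.6 CPM in mast-like cells, and Il25 and Il13ra1 are highest in tuft-like cells.

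Among ligands, Il25, an alarm cytokine of tuft cells, lay in tuft-like cells, with 68 of its 87 UMIs and 79.0 ± 24.1 CPM (SD, n = 2 plates). Tslp, a further epithelial alarm cytokine, had 7 UMIs in all cells. Il1b, a cytokine of activated leukocytes, had 22 of 28 UMIs in 2 mast-like cells. None of these genes had its highest level in pit-like cells.

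Among receptors, Il1rap, the partner chain of ST2, was found at 15.8 ± 21.5 CPM in mast-like cells (SD, n = 4), at 16.8 ± 0.4 CPM in tuft-like cells (SD, n = 2) and at 15.5 CPM in endocrine-like cells. In mast-like cells this rests on 9 UMIs in 8 of 114 cells. Il18r1, the receptor chain for interleukin-18, stood at 10.7 ± 8.4 CPM in mast-like cells and had 4 UMIs in 1 of the 19 T cell-like cells. Il4ra, a receptor chain for interleukin-4 and interleukin-13, stood at 165 ± 40 CPM in mast-like cells, and Il13ra1, its partner, at 315 ± 136 CPM in tuft-like cells.

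Of the signalling genes, Myd88, the adaptor below ST2, stood at 28.0 ± 14.0 CPM in mast-like and 32.8 ± 10.2 CPM in pit-like cells. Nfkb1, a subunit of NF-κB, stood at 270 ± 65 CPM in mast-like and 49.9 ± 8.9 CPM in pit-like cells (SD, n = 4 and 7 plates). Nfkbia and Tnfaip3, inhibitors that NF-κB induces, stood at 189 ± 91 and 74.5 ± 24.5 CPM in mast-like cells and at 48.9 ± 12.5 and 8.94 ± 4.04 CPM in pit-like cells. All 3 were highest in mast-like cells among the 9 classes drawn.

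For maturation and release, Casp1, the protease that cuts the interleukin-18 precursor, had no UMI in 500 pit-like cells, which allows a share of up to 0.6% of cells with a UMI and 0.243 CPM and does not limit the share of cells that express the gene. It had 21 UMIs in 15 mast-like and 21 UMIs in 13 T cell-like cells. Pycard, the inflammasome adaptor, stood at 98.96 ± 21.0 CPM in pit-like cells and Nlrc4, an inflammasome sensor, at 28.1 ± 4.2 CPM. Gsdmd, the pore-forming gasdermin, stood at 66.7 ± 16.1 CPM and Casp8 at 35.01 ± 6.4 CPM (SD, n = 7 plates each). Pit-like cells thus held transcripts of Il18, of the adaptor and of the pore, while no UMI of Casp1 was found in them.

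Of the cytokines that mast cells are known to make after stimulation, Il4 had 13 UMIs in all, each of them in mast-like cells (12 cells). Il6 had 26 of 32 UMIs in 19 mast-like cells, Csf1 43 of 78 in 24 and Tnf 28 of 41 in 17. Il13 had 4 of 6 UMIs there. Il5 and Il9 had no row in the 7 tables.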

How the data were processed

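Each deposited table holds whole-number UMI counts of 1 plate, genes by wells, with no value above 4095, per the file headers and the values. The genome build was mm9, as named in the submitters' processing notes. Which aligner and which counting tool made the tables is not given in the labels. Wells with at least 1000 UMIs without spike-ins were kept, with no doublet caller, since a sorter filled each well. Cells were clustered in scanpy 1.11.5 (2000 variable genes less the 3 genes and mitochondrial ones, 30 components, 15 neighbours, Leiden resolution 1.0), and plates were not integrated. Clusters were named by the marker list of largest mean log2 fold, if at least 3 markers were detected in over 25% of its cells and the mean was at least 0.5, unless its 10 leading genes went against it. Names were rebuilt here. All plates share the same 384 well barcodes, and no 2 wells held identical counts (0 pairs). UMIs were summed per plate, or per class where a plate had at least 10 cells, TMM-scaled, filtered (10 counts at the median library, 15 in total) and fitted as log2(CPM + 2) in limma 3.58.1 with a mean trend, over all genes. This scale understates the change of low genes. The design had named a count test first; limma was its written fallback, because the layout of the tables could not be read as counts by the unit check, although the values are whole numbers. Shares of cells were tested by exact permutation in scipy 1.17.1. The fit was also run on simulated counts with the same spread for all genes and independent plates, unlike these plates. The outcome is not given here, and no conclusion is drawn from it. The alternatives were other scalings, pseudocounts, filters, depths and cluster resolutions, leaving out each plate, and the replicate number as a block. Intervals and floors (3 counts) cover counting error only. The genes, pathway lists and markers were chosen with earlier results of these data known. Genes named are the 3, the 6 most like each, and pathway genes of at least 10 CPM in a class; Tslp, Il13 and the GATA genes were named after their values were seen. Counts of close paralogs such as Mcpt1 and Mcpt2 are uncertain.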

Additional observations from a re-analysis of the deposited data

Results flagged for a closer look

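Of 11 groups of 4 plates examined, 3 held a plate far from the others, and chance marks about 1 in 20 such groups. Il33 in neck-like cells stood at 17.55 CPM in the library labelled corpus replicate 1, from 9 UMIs, against 0 to 1.40 CPM in the other corpus plates. Il18 in neck-like cells stood at 72.5 CPM in corpus replicate 2, against 44.6 to 49.1 CPM in the other corpus plates. Il18 in endocrine-like cells stood at 52.8 CPM in the library labelled corpus replicate 1, from 3 UMIs, against 11.8 to 15.4 CPM in the other corpus plates.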

How the results depend on the processing

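Of the recomputed values, 174 kept direction and side of the threshold, 17 counts moved, 5 values turned and 5 newly passed. The direction of Il33 stayed the same in every recomputed fit and share of cells. Outside the 4 similar plates it turned in proliferating-like cells, with 0 CPM in pylorus replicate 1 and 8.27 CPM in corpus replicate 1. Over all kept cells the log2 difference of Il33 was 2.94 in the 4 similar plates. In pit-like cells it was 2.83 to 3.44 with 1 plate left out and passed without the library labelled corpus replicate 1; it was 2.87 with the replicate block (adjusted p = 0.0418) and 3.50 in the 4 similar plates, a setting added after seeing the data. In proliferating-like cells it was 1.15 to 3.36 with 1 plate left out. Il18 turned over all kept cells to -0.088 in the 4 similar plates and ranged from -0.0091 to 0.56 with 1 plate left out; in neck-like cells it ranged from -0.34 to 0.34. The share of pit-like cells with Il18 turned to -1.67 percentage points unthinned. Genes that passed over all kept cells numbered 2, against 1 at a pseudocount of 0.5, thinned, or with the block, 0 without a filter or with voom weights, 0 to 2 with 1 plate left out, and 425 in the 4 similar plates. In pit-like cells they numbered 0, against 1 at a pseudocount of 0.5, 4 with the block, 0 to 4 with 1 plate left out, and 267 in the 4 similar plates. The causes were not tested. Replicate numbers did not pair the plates: deviations of pylorus and corpus replicates 1, 2 and 3 correlated at 0.459, -0.115 and 0.492, so the block is only a shared number. The spread between plates and the few mast-like and proliferating-like cells limit the precision.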

Other observations

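The mast-like cells that carried Il1rl1 held several protease genes, and these values were singled out after they were seen. Mcpt1 and Mcpt2, proteases of mucosal mast cells, were found in 62.3% and 94.7% of the 114 cells. Of the proteases known from connective tissue mast cells, Cpa3 was found in 93.9%, Tpsb2 in 86.0%, Cma1 in 84.2%, Tpsab1 in 82.5% and Mcpt4 in 11.4%. Fcer1a and Ms4a2, chains of the high-affinity receptor for immunoglobulin E, were found in 57.9% and 84.2%. Itgax was found in 52.6% and Cx3cr1 in 43.9% of the same cells, both often used as markers of macrophages or dendritic cells, whereas the macrophage genes Csf1r and Cd68 were found in 6.14% and 3.51%.

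GATA factors divided by class. Gata1 stood at 70.5 ± 39.0 CPM in mast-like cells (SD, n = 4 plates) and under 1 CPM in each epithelial class. Gata4 stood at 296 ± 55 CPM in pit-like cells (SD, n = 7) and at 45.6 ± 28.9 CPM in mast-like cells, and Gata6 at 158 ± 50 and 16.3 ± 15.2 CPM. Gata2 is one of the genes that defined the mast-like cluster, so its level there is no separate finding.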
